A study of Mus musculus with 13 samples.

Results

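Hepatic stellate cells (HSC) kept in culture for 7 or 14 days were compared with liver sinusoidal endothelial cells (LSEC), both from naive C57BL/6 mice of 6 to 10 weeks with no further genotype or treatment given. The arrays were taken by their titles: 2 long-cultured HSC arrays (1 of day 7 and 1 of day 14) and 3 LSEC arrays, 5 of the 13 arrays of the study. The other 8 hold HSC of 1 day in culture (2 arrays), hepatocytes (3) and Kupffer cells (3). HSC were grown in DMEM with 10% serum, whereas LSEC were sorted and not cultured, and no array of uncultured HSC was analysed. Population and culture therefore cannot be told apart in any difference below. The titles name the LSEC arrays biological replicates but do not so name the 7-day and 14-day arrays. Whether arrays came from separate animals is not stated in the labels. The p-values rest on the spread within groups over all 13 arrays, which may in part be technical. Within the long-cultured group that spread is day 7 against day 14, a difference in culture time.

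HSC are the pericytes of the liver sinusoid. In the resting state they store retinyl esters, and on plastic they turn into contractile, collagen-secreting cells that resemble the myofibroblasts of fibrotic liver. LSEC form the fenestrated wall of the sinusoid and clear waste macromolecules from blood through scavenger receptors. The contractile genes of myofibroblasts are classically driven by serum response factor (SRF) through CArG boxes, and endothelial genes by factors of the ETS family.

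Deposited values are intensities per probe set, printed to 4 significant digits. They were compared as log2(intensity + 83), and a log2 difference is long-cultured HSC minus LSEC throughout, so a positive one is higher in long-cultured HSC. Called genes had an adjusted p under 0.05 in limma, with Benjamini-Hochberg adjustment over all tested genes, and differed by 1 or more on the log2 scale. SE is the standard error of the log2 difference. Array medians ran from 216.5 to 232.9. Across all 25194 probe sets the day 7 and day 14 arrays correlated at r = 0.9852, the LSEC arrays at 0.9902 to 0.9957, and long-cultured HSC with LSEC at 0.8885 to 0.8922. Probe sets within an array are not independent replicates. LSEC replicate 3 stood somewhat apart from the other LSEC arrays, and without it 1057 genes were higher and 869 lower.

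The label of each group was first set against its markers. Cnn1, encoding the smooth muscle protein calponin, read 5888 at day 7 and 6146 at day 14, against 132.3, 120.7 and 122.4 on the LSEC arrays. Col1a1, a chain of type I collagen, read 6807 and 11780 in long-cultured HSC and 347.8, 348.5 and 335.3 in LSEC. The adherens junction gene Cdh5 (VE-cadherin) read 237.3 and 421.7 in long-cultured HSC, against 14280, 13320 and 13980 in LSEC. Stab2, a hyaluronan-clearing scavenger receptor of the sinusoid, read 163.9 and 185.1 against 7490, 6359 and 4177. Each of these 4 genes separated the groups with no overlap and in the direction of the labels. Such separation was common, with 28.5% of tested genes above all LSEC arrays on both long-cultured arrays and 42.3% below. The 4 were named beforehand as markers of this comparison, so their values only describe it.

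**Figure D1:**
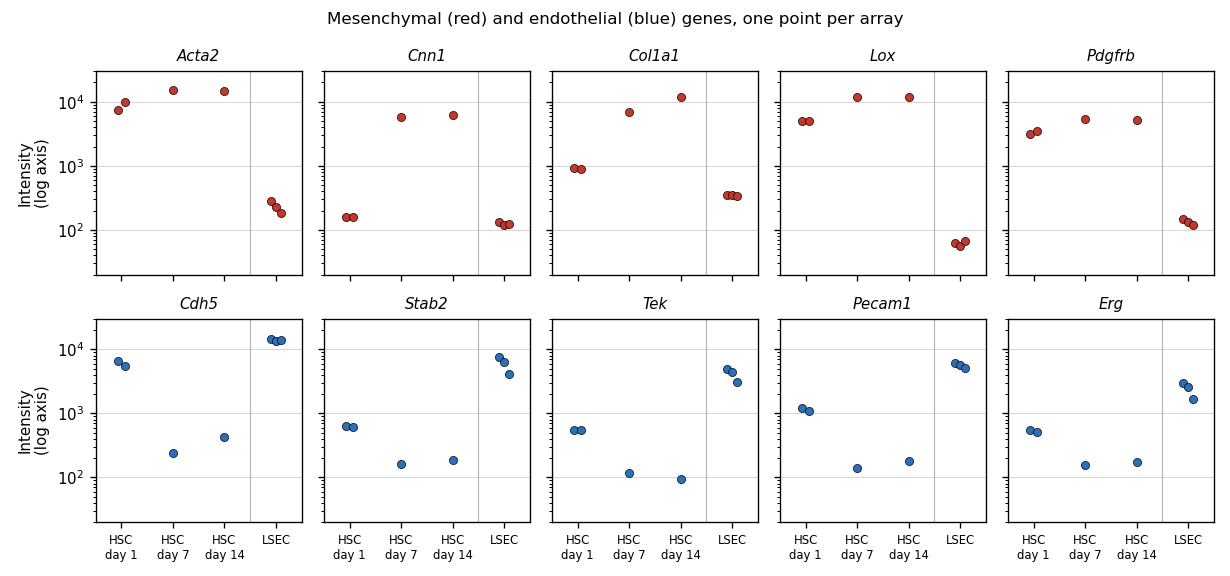
Intensity (log axis) of 5 mesenchymal genes (red, top) and 5 endothelial genes (blue, bottom), with 1 point per array for HSC at day 1 (2 arrays), day 7 (1) and day 14 (1) and for LSEC (3). Cnn1 is near the LSEC level at day 1 and high at both later times, whereas Cdh5 is intermediate at day 1 and low later.

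Across the 12368 genes tested, 1072 were higher in long-cultured HSC (8.67%) and 842 were lower (6.81%), together 15.5%. The median log2 difference of all tested genes was -0.08. Scaling the arrays to a common 75th percentile moved that median by 0.13, and 65.5% of the calls were then higher against 56.0% here. Both long-cultured arrays lay above all LSEC arrays for 3519 genes (28.5%) and below all of them for 5232 (42.3%). Every called gene had the same sign at day 7 and at day 14. The call itself favours this, as it needs a mean difference of at least 1 over those same arrays. A difference of at least 3 was seen for 169 called genes that were higher and 67 that were lower. These are bulk samples, in which fewer cells of a type and less RNA per cell cannot be told apart.

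**Figure D2:**
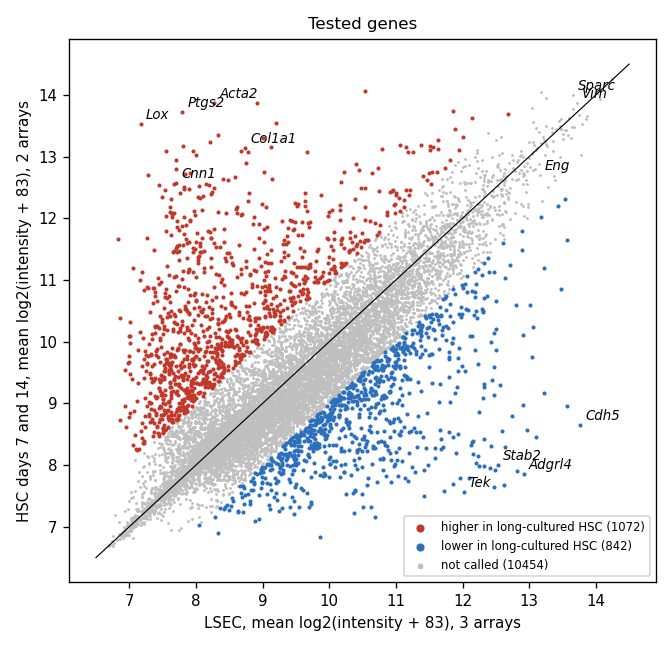
Mean log2(intensity + 83) of the 2 long-cultured HSC arrays (vertical axis) against that of the 3 LSEC arrays (horizontal axis) for each tested gene, with equality as a line. The 1072 genes higher in long-cultured HSC (red) include Lox and Acta2, the 842 lower (blue) include Cdh5 and Stab2, and Vim and Sparc lie near the line at high intensity in both.

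The promoters of genes at the head of both directions are printed first, because contractile genes moved together and endothelial genes moved together. They are the 3 contractile genes and the 3 endothelial genes with the largest differences for which the RefSeq promoter table (build GRCm38.p6) has an entry, with Stab2 added as a marker. Each line gives the 250 bases before the annotated start, 5′ to 3′ on the gene's strand. In the first 3, capitals mark a full CArG box (CCWWWWWWGG, W being A or T, no mismatch allowed) on either strand.
Acta2, chr19:34255374-34255623, minus strand: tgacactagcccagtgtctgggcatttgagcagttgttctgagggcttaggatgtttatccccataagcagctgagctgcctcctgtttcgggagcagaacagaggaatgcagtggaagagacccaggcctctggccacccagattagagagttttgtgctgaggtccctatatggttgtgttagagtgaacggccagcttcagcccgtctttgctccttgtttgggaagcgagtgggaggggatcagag
Myl9, chr2:156775214-156775463, plus strand: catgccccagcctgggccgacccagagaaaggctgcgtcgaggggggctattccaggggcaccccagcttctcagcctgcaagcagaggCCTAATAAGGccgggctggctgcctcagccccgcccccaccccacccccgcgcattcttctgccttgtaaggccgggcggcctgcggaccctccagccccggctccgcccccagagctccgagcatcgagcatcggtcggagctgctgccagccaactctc
Cnn1, chr9:22099003-22099252, plus strand: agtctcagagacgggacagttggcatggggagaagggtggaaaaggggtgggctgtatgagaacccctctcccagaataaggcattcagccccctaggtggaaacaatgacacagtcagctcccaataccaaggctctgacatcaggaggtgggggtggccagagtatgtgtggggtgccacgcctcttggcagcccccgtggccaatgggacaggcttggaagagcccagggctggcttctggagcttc
In the next 4, capitals mark AGGAAG, an ETS-type sequence, on either strand.
Adgrl4, chr3:151437632-151437881, plus strand: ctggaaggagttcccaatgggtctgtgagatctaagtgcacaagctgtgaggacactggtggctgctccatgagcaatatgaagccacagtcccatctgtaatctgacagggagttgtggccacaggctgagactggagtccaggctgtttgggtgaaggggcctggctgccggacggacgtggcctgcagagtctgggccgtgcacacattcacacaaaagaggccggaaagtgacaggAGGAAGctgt
Adgrf5, chr17:43360181-43360430, plus strand: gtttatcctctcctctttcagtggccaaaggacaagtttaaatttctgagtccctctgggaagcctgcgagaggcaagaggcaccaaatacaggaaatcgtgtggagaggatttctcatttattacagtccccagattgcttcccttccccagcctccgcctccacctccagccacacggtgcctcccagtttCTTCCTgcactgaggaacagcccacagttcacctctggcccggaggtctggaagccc
Fcgr2b, chr1:170976072-170976321, minus strand: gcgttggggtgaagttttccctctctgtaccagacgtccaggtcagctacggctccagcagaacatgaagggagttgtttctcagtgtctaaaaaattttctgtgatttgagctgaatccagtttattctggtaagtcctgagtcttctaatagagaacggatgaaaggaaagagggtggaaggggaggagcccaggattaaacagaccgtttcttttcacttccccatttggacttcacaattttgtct
Stab2, chr10:87007943-87008192, minus strand: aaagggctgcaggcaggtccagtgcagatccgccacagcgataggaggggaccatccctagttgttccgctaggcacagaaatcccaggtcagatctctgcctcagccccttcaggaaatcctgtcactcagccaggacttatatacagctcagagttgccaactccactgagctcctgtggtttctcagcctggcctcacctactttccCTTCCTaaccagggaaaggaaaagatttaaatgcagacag

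A full CArG box stands in the Myl9 stretch, ending 152 bases before the start, and no full match is in the Acta2 and Cnn1 stretches. Forms with a mismatch were not searched for. The Acta2 stretch does hold ccctatatgg and ccttgtttgg, which each differ from a full match by 1 letter. Of the 23 higher contractile genes, 18 had promoter windows in the table. Of these 24 windows, 6 held a CArG box on either strand in their 300 bases. It was found in 3.68% of the 1087 windows of all genes higher in long-cultured HSC and in 1.27% of the 865 windows of lower genes, against 1.63% of all 32851 windows in the table. The ETS-type sequence AGGAAG was found in 1 place each before Adgrl4, Adgrf5 and Stab2, and not before Fcgr2b. Shorter forms such as GGAA were not searched for, and ggaa does stand in the Fcgr2b stretch. Of the 67 lower genes of the 4 endothelial lists, 40 had windows in the table, and 25 of those 49 windows held AGGAAG. It occurred in 33.1% of those of all higher genes and 35.6% of those of all lower genes, against 35.4% of all windows. CATTCC, which is bound by TEAD factors, was in 8 of the 24 contractile windows and 11 of the 49 windows of lower endothelial genes, and in 16.7% of those of all higher and 11% of those of all lower genes, against 14.7% of all windows. Several windows can belong to 1 gene, places of different motifs may overlap, and a match is a description of letters.

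Contractile genes made up one of the most uniform groups. Of 30 measured members 29 were tested, 23 were higher, none was lower and 6 did not pass, with a median log2 difference of 1.64 beside -0.08 for all tested genes. Acta2, the smooth muscle actin that defines the myofibroblast, read 15220 and 14600 in long-cultured HSC, against 277.6, 229.3 and 182.5 in LSEC (log2 difference 5.59, SE 0.131, adjusted p = 4.2e-12). It had already reached 7461 and 9745 in HSC after 1 day. Myl9, the regulatory light chain of smooth muscle myosin, read 9661 and 7734, against 121.0, 106.7 and 86.33 in LSEC (5.54, SE 0.167, adjusted p = 3.1e-11). In both genes the 2 HSC arrays were far above all LSEC arrays.

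Early and late timing stood side by side among these genes. Tagln, the actin-binding protein SM22, was high from day 1 on, with 6697 and 7734 at day 1 and 9351 and 7935 at days 7 and 14, against 201.5, 157.0 and 143.3 in LSEC (5.13, adjusted p = 2.1e-12). Des, the intermediate filament desmin, likewise read 2707 and 2932 at day 1 and 3769 and 4019 later, against 128.1, 135.2 and 121.1 in LSEC. Cnn1 in contrast read 157.7 and 160.3 at day 1, close to LSEC, and reached its high level at the later times (log2 difference 4.87, SE 0.0785, adjusted p = 4.0e-13). Actg2, the enteric smooth muscle actin, read 341.1 and 407.6 at day 1, 4906 at day 7 and 7193 at day 14, against 119.7 to 123.7 in LSEC. Myh11, smooth muscle myosin heavy chain, read 287.3 and 456.8 at day 1 and 2824 and 2849 later, against 153.1 to 185.1 in LSEC (3.56). On the day 1 arrays these 3 genes lay between LSEC and the later arrays, nearer to LSEC.

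Not every cytoskeletal gene separated the cell types. The vimentin gene Vim read 14320 and 15440 in long-cultured HSC, against 14620, 13460 and 12150 in LSEC (0.15, adjusted p = 0.37), and the groups overlapped. Tpm4, a tropomyosin of non-muscle cells, read 9239 and 9342 against 8784, 7990 and 8947 (0.12, adjusted p = 0.61). The calponin relative Cnn3 differed by 0.38. Tpm2, the muscle tropomyosin, was by comparison 3.84 higher.

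Genes of the SRF, MRTF and YAP pathways, which couple actin tension to transcription, were split. Of 18 tested, 7 were higher, none was lower and 11 did not pass, with a median of 0.84. Vgll3, a cofactor of TEAD factors, read 5001 and 3584, against 142.2, 111.4 and 96.18 in LSEC (4.44, adjusted p = 3.5e-11). Ankrd1, a YAP target, read 8040 and 5817 in long-cultured HSC and 402.9 to 491.5 in LSEC (3.74), although 11900 and 12130 at day 1 were higher still. Ccn2, also a YAP target, was abundant in both, with 17890 and 15920 against 8579, 8689 and 10330, and a difference of 0.87 that missed the size limit (adjusted p = 0.0012) and passed it under 75th percentile scaling (1.02). Among the factors themselves, Srf differed by 0.81, Yap1 by 0.67 and Wwtr1 (TAZ) by -0.62, none of which passed the size limit, although Srf was called without the day 14 array (1.07). Myocd, the cardiac and smooth muscle cofactor of SRF, read 124.7 and 120.5 against 76.8 to 80.7 and fell under the filter on low values.

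Collagen genes were higher or did not pass. Of 22 tested, 13 were higher, none was lower and 9 did not pass (median 1.38). Col12a1, a collagen that bridges fibrils, read 7572 and 7952, against 126.1, 118.7 and 128.2 in LSEC (5.24, SE 0.204, adjusted p = 3.3e-10). Col8a1, a short-chain collagen of vessel walls, read 6161 and 7361 against 152.5 to 159.3 (4.83). The type I chains differed by 4.40 for Col1a1 (SE 0.164, adjusted p = 2.2e-10) and 4.23 for Col1a2, and Col3a1 by 2.74. These 3 were higher at day 14 than at day 7 on the single array of each time: Col1a2 read 9861 at day 14 and 4020 at day 7, and Col3a1 3098 and 1397. After 1 day Col1a1 read 934.9 and 904.8, above LSEC but far below the later arrays.

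Chains of the basement membrane collagen IV were uneven. Col4a5 was higher, with 529.9 and 663.5 against 178.1, 157.0 and 163.0 in LSEC (1.44, adjusted p = 5.0e-08). Col4a1 read 3165 and 3300, against 1714, 1828 and 1491 in LSEC (0.92, adjusted p = 6.3e-05), and Col4a2 differed by 0.49. Neither of these 2 reached the size limit, although both long-cultured arrays were above all LSEC arrays, and Col4a1 was called under 75th percentile scaling (1.06). The largest difference of all tested genes was that of Lox, which encodes the lysyl oxidase that cross-links collagen and elastin: 11660 and 11810 against 61.49, 56.78 and 66.91 (6.35, SE 0.335, adjusted p = 6.5e-09). Of the 23 genes of collagen processing tested, 13 were higher, none was lower and 10 did not pass (median 1.35). Plod2, the hydroxylase of telopeptide lysines, differed by 4.34 and P4ha3, a prolyl hydroxylase subunit, by 3.72. Serpinh1, the collagen chaperone HSP47, read 3944 and 3624 against 764.6, 894.3 and 586.1 (2.23). Crtap, part of the prolyl 3-hydroxylation complex, read 2168 and 2120 against 2310, 2525 and 2582 (-0.20, adjusted p = 0.22).

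Matrix glycoproteins had the largest median among the lists, 2.84, with 26 of 35 tested members higher and none lower. Postn, the matricellular protein periostin, read 5300 and 8176, against 76.96, 73.52 and 64.90 in LSEC (5.43, SE 0.155, adjusted p = 2.2e-11). Fibronectin (Fn1) read 12680 and 17510 against 439.7, 441.9 and 321.7 (4.96, adjusted p = 1.1e-10). Ogn, a small leucine-rich proteoglycan, read 2949 and 3379 against 28.54 to 33.74, and the related Lum 1258 and 1233 against 31.95 to 34.28. Both were modest at day 1, when Ogn read 169.5 and 151.6 and Lum 181.2 and 188.2. Tenascin C (Tnc) in contrast was as high at day 1, with 10910 and 11700, as at day 7 (10910) and day 14 (9181), against 690.1, 458.4 and 244.4 in LSEC (4.29).

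The LSEC arrays differed among themselves for some of these genes. Decorin (Dcn) read 11430 and 12320 on the long-cultured arrays, against 822.7 and 759.5 in LSEC replicates 1 and 2 and 181.1 in replicate 3 (4.35, SE 0.475, adjusted p = 6.1e-06). Thrombospondin 1 (Thbs1) read 16880 and 17140 in long-cultured HSC, against 1902, 1827 and 782.1 in LSEC (3.52). The part of HSC transcripts in the LSEC arrays in these values was not tested. Some matrix genes were shared at a high level. Sparc, a collagen-binding matricellular protein, read 15400 and 17250 against 13140, 12910 and 12360 (0.35, adjusted p = 0.085), and Igfbp7 read 14870 and 13030 against 13950, 13420 and 11180 (0.12, adjusted p = 0.52). Laminin alpha 4 (Lama4), a chain of vessel basement membranes, read 949.1 and 972.4 against 2403, 1690 and 1230 (-0.78), below all LSEC arrays without reaching the size limit except without LSEC replicate 3 (-1.01).

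Proteases and their inhibitors were mostly higher too, 16 of 23 tested (median 1.88), with 2 lower. The inhibitor Timp1, which blocks matrix metalloproteinases, read 8402 and 8138 against 209.6, 197.5 and 121.6 (5.03, SE 0.163, adjusted p = 6.3e-11), and Timp2 differed by 4.57. The gelatinase Mmp2 read 4256 and 4404 against 270.3, 260.7 and 195.5 (3.77). Cemip, a hyaluronan-degrading protein, read 4823 and 5204 at days 7 and 14 but 226.5 and 253.0 at day 1, against 105.4 to 132.5 in LSEC (4.69). Timp3 was strong in both groups, 12930 and 13260 against 5627, 7359 and 6545, and its difference of 1.01 ended as a call in 4 settings, lowest without LSEC replicate 1 (0.91). Adamts7, a protease of the thrombospondin-repeat family, was lower, with 329.4 and 371.5 against 2063, 2132 and 1828 (-2.27, adjusted p = 1.3e-09). The membrane protease Mmp14 read 4142 and 5486 against 4188 to 4563 (0.13, adjusted p = 0.72).

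Growth factors and receptors of mesenchymal cells gave 19 higher and 2 lower among 28 tested (median 1.90). The receptor Pdgfrb, through which platelet-derived growth factor drives stellate proliferation, read 5447 and 5278, against 150.3, 132.3 and 121.3 in LSEC (4.65, SE 0.103, adjusted p = 2.6e-12). Its ligand gene Pdgfb was lower, 526.9 and 441.1 against 2173, 2156 and 783.5 (-1.53, SE 0.301, adjusted p = 7.7e-04). Other ligands of the family lay on the side of the receptor: Pdgfd was 1.26 higher and Pdgfc 2.51 higher, and Pdgfa differed by 0.76, under the size limit. Of the TGF-beta ligands, Tgfb3 read 7242 and 6893 against 133.2, 117.6 and 124.6 (5.10, adjusted p = 1.7e-10) and Tgfb2 differed by 3.28, while Tgfb1 read 2637 and 1605 against 3157, 3247 and 2350 (-0.47, adjusted p = 0.056). The receptor Tgfbr1 was 1.41 higher, Tgfbr2 differed by 0.29, and the co-receptor Tgfbr3 was lower (-1.57), with 665.5 and 529.0 against 2157, 1804 and 1836.

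Vascular growth factors were also found on the HSC side. Vegfa read 4776 and 4066 against 893.7, 925.0 and 1431 (1.97), and Vegfd, a lymphatic growth factor, read 4395 and 3032 at days 7 and 14 but 162.9 and 151.9 at day 1, against 106.2 to 176.1 in LSEC (4.15, adjusted p = 3.3e-10). The chemokine Cxcl12 was 2.36 higher, although it read 1420 and 878.5 at the later times and 8069 and 7495 at day 1. Hgf, the hepatocyte growth factor, varied widely within both groups, 704.7 and 202.0 against 474.0, 892.7 and 126.9 (-0.03, SE 0.514, adjusted p = 0.96).

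Transcription factors of mesenchymal cells were higher in 12 of 20 tested cases, and 1 was lower (median 1.16). Foxf1, a factor of visceral mesenchyme, read 4973 and 3507 against 213.0, 196.0 and 117.1 (4.06, adjusted p = 7.1e-10), and Prrx1, a limb mesenchyme factor, read 3408 and 4078 against 146.3 to 149.8 (4.04). Tcf21, a stellate cell factor, read 774.9 and 390.3 against 112.0 to 135.6 (1.60, adjusted p = 7.1e-06). The epithelial-to-mesenchymal factors were uneven: Snai1 was 2.04 higher, Twist1 read 220.3 and 246.8 against 216.1 to 254.1 (0.00, adjusted p = 0.98), and Zeb2 read 1861 and 1797 against 1883 to 2044 (-0.09, adjusted p = 0.47). Mecom, which regulates arterial and haematopoietic genes, read 76.40 and 73.24 against 544.0, 615.4 and 470.4 (-1.98, adjusted p = 4.0e-09).

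Stellate identity genes had the lowest median of the mesenchymal lists, 0.44. Of 21 tested, 8 were higher, none was lower and 13 did not pass. Some of these entered the test only through arrays outside the comparison. With the filter on low values applied to the 5 arrays compared, 14 were tested and 8 were higher, beside 7 of 18 SRF, MRTF and YAP genes. Lrat, the enzyme that makes retinyl esters, read 704.7 and 456.8 against 106.8, 125.2 and 104.6 (1.74, SE 0.187, adjusted p = 5.2e-06). Reln, a secreted glycoprotein of resting stellate cells, read 4331 and 4597 at day 1, 2270 at day 7 and 276.6 at day 14, against 211.0, 179.7 and 150.3 in LSEC (1.81, adjusted p = 8.4e-03). That call was lost with the 5 arrays alone (adjusted p = 0.063) and without the day 7 array (0.46). Hhip, an antagonist of hedgehog ligands, read 590.8 and 880.1 at day 1 but 151.7 and 62.20 later, against 54.67 to 68.97 in LSEC (0.34, adjusted p = 0.12). Rgs5, a pericyte regulator of G proteins, read 1101 and 1144 at day 1 but 286.9 and 127.7 later (0.59). Reln and Hhip were thus clear of LSEC after 1 day and close to it at day 14. The nerve growth factor receptor gene Ngfr likewise differed by 0.44.

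**Figure D3:**
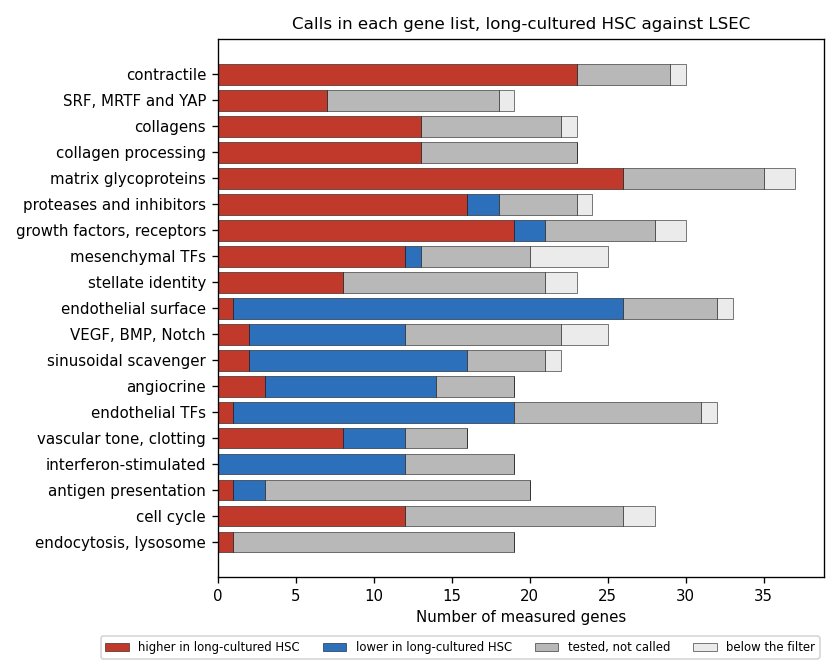
Number of measured genes in each list that were higher (red), lower (blue), tested but not called (grey) or below the filter (pale) in long-cultured HSC against LSEC. Mesenchymal lists hold mostly red or grey, with 26 of 35 tested matrix glycoproteins higher, and endothelial lists mostly blue or grey, with 25 of 32 tested surface genes lower.

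On the endothelial side, genes of junctions and the cell surface were the most uniformly low. Of 32 tested, 25 were lower, 1 was higher and 6 did not pass, with a median of -3.08 beside -0.08 for all tested genes. Cdh5 differed by -5.12 (SE 0.190, adjusted p = 2.1e-10), the largest fall of all tested genes. Adgrl4, an adhesion receptor of vessels, read 101.3 and 205.3 against 9221, 7881 and 6144 (-5.07, SE 0.192, adjusted p = 2.6e-10), and Adgrf5, another of that family, read 146.3 and 168.2 against 7355, 6260 and 7789 (-4.90). Pecam1, the platelet endothelial adhesion molecule CD31, read 141.2 and 180.7 against 6177, 5671 and 5178 (-4.56, SE 0.120, adjusted p = 1.2e-11). The angiopoietin receptor Tek (TIE2) read 118.5 and 94.10 against 4887, 4401 and 3128 (-4.46, adjusted p = 9.2e-11), and its partner Tie1 187.8 and 213.3 against 5166, 5336 and 3838 (-4.09). Cldn5, the tight junction claudin, differed by -4.34.

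Members of the same list that did not follow included some genes of caveolae and the TGF-beta co-receptor endoglin. The caveola gene Cav2 differed by -0.90, under the size limit, and by -1.05 without the day 14 array. Eng (endoglin) read 8532 and 5112 against 9749, 10120 and 7632 (-0.46, adjusted p = 0.084). Cav1 read 2427 and 4145 against 3078, 2398 and 1697 (0.44, adjusted p = 0.20), and the caveola coat gene Cavin2 was slightly higher, 1734 and 1412 against 850.6, 1053 and 422.4 (1.02, adjusted p = 3.5e-03), a call that ended without LSEC replicate 3 (0.68), without the day 7 array (0.88) and with the pooled median as the constant. Plvap, the diaphragm protein of fenestrae and caveolae, read 3352 at day 7 and 403.0 at day 14, against 1404, 1261 and 318.3 in LSEC (0.48, SE 0.650, adjusted p = 0.57), so the groups overlapped, and it was called higher without the day 14 array (1.89).

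The VEGF, BMP and Notch genes of endothelium were divided, with 10 lower, 2 higher and 10 not passing among 22 tested (median -0.48). The VEGF receptor Kdr read 149.1 and 169.0 against 3747, 3519 and 1422 (-3.51, SE 0.302, adjusted p = 7.0e-07), and Flt4, the VEGF receptor for lymphatic ligands, 383.7 and 225.8 against 3878, 3610 and 2213 (-3.09). The peptide ligand Apln read 260.0 and 302.4 against 4039, 3617 and 3827 (-3.43, adjusted p = 1.8e-11). Notch1 and Notch4 were lower by -2.20 and -2.11, while the Notch ligand Jag1 was higher, 2287 and 1871 against 561.0, 651.9 and 477.1 (1.74, adjusted p = 2.1e-07). Acvrl1, the endothelial receptor for BMP9 and BMP10, read 563.1 and 544.7 against 422.4 to 497.9 (0.21, adjusted p = 0.13), and its target Id1 differed by 0.75 (adjusted p = 0.038; 1.18 and called without the day 7 array).

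Scavenger and endocytic genes of the sinusoid had 14 lower, 2 higher and 5 not passing among 21 tested (median -2.94). Stab2 differed by -4.52 (SE 0.192, adjusted p = 7.6e-10) and Stab1, its relative, by -3.39. Fcgr2b, the inhibitory Fc receptor by which LSEC clear immune complexes, read 183.6 and 383.3 against 9412, 8762 and 8029 (-4.64, adjusted p = 2.4e-09). The hyaluronan receptor gene Lyve1 read 305.2 and 287.4 against 8384, 7826 and 7530 (-4.40, adjusted p = 6.7e-11). F8, the clotting factor VIII that the liver endothelium makes, read 238.3 and 232.8 against 6966, 5639 and 3999 (-4.10). The exceptions were endocytic receptors known in stellate cells and macrophages too: Lrp1, the large lipoprotein receptor, read 6974 and 8102 against 386.8, 380.4 and 282.6 (4.14, SE 0.143, adjusted p = 1.1e-10), and the collectin Colec12 was 2.07 higher. General endocytic and lysosomal genes moved far less, with 1 higher, none lower and 18 not passing of 19 tested (median -0.20). Lamp1, a lysosomal membrane protein, read 6674 and 6319 against 7329, 7684 and 7824 (-0.23).

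Angiocrine signals, secreted by LSEC to hepatocytes and stellate cells, were lower in 11 of 19 cases and higher in 3 (median -1.24). The iron-regulating ligand Bmp6 read 611.3 and 375.0 against 5082, 5631 and 6211 (-3.34, adjusted p = 6.3e-09), and Bmp2 read 393.5 and 112.5 against 4330, 4211 and 1784 (-3.43, SE 0.361, adjusted p = 4.4e-06). Wnt2, a zonation signal, read 403.0 and 435.6 against 446.3, 514.4 and 973.8 (-0.47, adjusted p = 0.094). Heparin-binding EGF (Hbegf) was higher, 4916 and 5095 against 1174, 1548 and 1084 (1.93). Rspo3, which strengthens Wnt signals, read 1097 and 708.8 against 408.9, 358.3 and 300.0 (1.15), a call that ended without the day 7 array (0.86) and with the pooled median as the constant.

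Transcription factors of endothelium were lower in 18 of 31 tested cases and higher in 1 (median -1.25). Erg, an ETS factor that maintains endothelial fate, read 157.5 and 177.0 against 2966, 2589 and 1658 (-3.28, SE 0.175, adjusted p = 7.3e-09), and its relative Fli1 268.4 and 269.1 against 2186, 2090 and 1365 (-2.45). Sox17, Sox7 and Sox18, the SOXF factors, were lower by -3.19, -3.70 and -1.96. Bcl6b, a zinc finger repressor of vessels, had the largest difference in the list, 173.7 and 155.5 against 6012, 5936 and 4348 (-4.46). Gata4, which is needed for the sinusoidal fate and is also known in stellate cells, read 1273 and 1049 against 2416, 3137 and 2135 (-1.08), a call that ended in 4 settings, among them 75th percentile scaling (-0.93) and leaving out LSEC replicate 2 (-0.93) or the day 14 array (-0.95). The flow-responsive factor Klf2 read 349.2 and 376.5 against 306.3, 329.1 and 385.2 (0.08, adjusted p = 0.60). Meis1 was the member that was higher (1.26), a call that ended with the pooled median as the constant (0.98) and without the day 14 array (0.93).

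Genes of vascular tone and clotting went both ways, 8 higher and 4 lower among 16 tested (median 0.53), beside 8.67% and 6.81% of all tested genes. With the 5 arrays alone 6 of 15 tested were higher and 4 lower. Nos3, the endothelial nitric oxide synthase, read 133.6 and 149.2 against 927.0, 1131 and 773.9 (-2.18, adjusted p = 2.3e-08), whereas the subunits of its effector, soluble guanylate cyclase, were higher: Gucy1b1 read 768.1 and 447.0 against 54.59, 46.53 and 43.41 (2.36). Endothelin 1 (Edn1) was lower by -2.62 and its receptor gene Ednrb by -2.82, with 1444 and 875.0 against 7315, 8071 and 10150 for Ednrb. Ptgs2, the inducible cyclooxygenase, read 13290 and 13620 against 122.4, 146.6 and 149.0 (5.93, SE 0.115, adjusted p = 1.1e-12), and tissue factor (F3), which starts clotting, 8645 and 9711 against 136.9, 146.2 and 139.3 (5.37). Vwf, the von Willebrand factor gene of larger vessels, was low in both groups, 187.8 and 201.7 against 275.2, 259.9 and 221.1 (-0.27).

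Other genes stood among the largest differences. Efemp1, a fibulin of elastic tissue, read 6936 and 4969 against 105.5, 77.95 and 90.95 (5.10), and Fhl1, a LIM protein of muscle, 11310 and 8104 against 242.5, 226.0 and 172.0 (5.03). In the other direction the receptor tyrosine kinase Kit read 113.1 and 121.2 against 6010, 5275 and 5588 (-4.83, SE 0.0954, adjusted p = 1.1e-12), and Car8, a carbonic anhydrase relative without enzyme activity, 120.8 and 120.9 against 5377, 6681 and 6658 (-4.95). Cd93, a C-type lectin in the endothelial surface list, read 407.0 and 423.2 against 12760, 12340 and 11090 (-4.61).

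How low endothelial transcripts were on the HSC arrays was followed over time. The 4 lists of surface, VEGF, scavenger and transcription factor genes had 112 measured members. As a share of the LSEC mean, their intensity had a median of 37% at day 1, 25.6% at day 7 and 23% at day 14. At day 7, 80 of the 112 were below the day 1 mean, and at day 14 82 were, while 55 were lower at day 14 than at day 7. The 67 that were called lower had medians of 22.3%, 8.24% and 8.58%, and 63 of them were below the day 1 mean at day 7. These 67 were chosen for low values at days 7 and 14, which favours lower shares there than at day 1, so their shares only describe them. Of the 67, 32 were under 10% of LSEC on both long-cultured arrays. On 34 of them neither long-cultured array exceeded the highest hepatocyte array, against 7 for the day 1 arrays, a contrast that the same choice of genes favours. The hepatocyte level is not a background level for every gene, as it reached 3180.3 for Ets2 and 1083.9 for Hhex. Cdh5 was at 43.2% of LSEC at day 1, 1.71% at day 7 and 3.04% at day 14. Stab2 was at 10.4%, 2.73% and 3.08%. The shares are of intensity, which does not reach 0 for an absent transcript, so they overstate low levels.

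**Figure D4:**
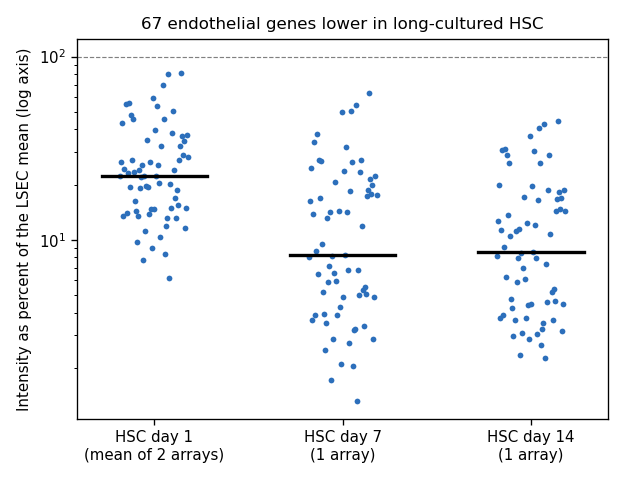
Intensity of the 67 endothelial genes lower in long-cultured HSC, as percent of the LSEC mean (log axis, dashed line at 100%), at day 1 (mean of 2 arrays), day 7 and day 14 (1 array each), with 1 point per gene and the median as a bar. The median is 22.3% at day 1, 8.24% at day 7 and 8.58% at day 14, in genes chosen for low values at the later times.

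Of these genes, 8 were above 25% of LSEC on both long-cultured arrays. Clec14a, a lectin of endothelium, is among them although its 92.27 and 98.44 lie under the filter on low values, as its LSEC level was modest (417.0, 362.8 and 238.1). The adaptor Dab2 read 2414 and 3205 against 7735, 8054 and 6764 (-1.40), and the venous factor Nr2f2 768.3 and 629.8 against 2036, 2854 and 1198 (-1.36). Jam2, a junctional adhesion molecule, read 2685 and 1571 against 5020, 3575 and 4145, and its call, at the size limit, ended in 4 settings, smallest without the day 14 array (-0.63). Within LSEC, replicate 3 was the lowest array for 59 of the 67 genes, replicate 2 for 6 and replicate 1 for 2. The gap was wide for Kdr (1422 in replicate 3), for Dll4, a Notch ligand (1594, 1201 and 326.2), and for Gpr182, an atypical chemokine receptor of sinusoids (3981, 2748 and 923.7). All 3 LSEC arrays still lay above both long-cultured arrays for these genes.

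Interferon-stimulated genes were lower in 12 of 19 tested cases and higher in none (median -1.36). Rtp4, a transporter chaperone, read 127.6 and 130.0 against 2314, 1984 and 1424 (-3.21), Irf7, the factor that amplifies interferon production, 322.9 and 257.1 against 2920, 2609 and 1926 (-2.77, adjusted p = 3.9e-07), and Oasl2, an antiviral protein, 601.6 and 507.6 against 3616, 3285 and 2619 (-2.34). Of 20 antigen presentation genes tested, 1 was higher, 2 were lower and 17 did not pass, near the 8.67% and 6.81% of all genes, and 4 were lower without the day 7 array. B2m, the light chain of MHC class I, read 9937 and 10060 against 12690, 11880 and 13060 (-0.32). Toll-like receptor and inflammasome genes gave 1 higher and 4 lower among 20 (median -0.38), beside the same shares of all genes, with Nfkbia, the inhibitor of NF-kappa-B, lower by -2.33.

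Cell cycle genes were higher in 12 of 26 tested cases and lower in none (median 0.66). Mki67, the proliferation antigen, read 1146 at day 7 and 648.3 at day 14, against 146.3, 113.5 and 132.5 in LSEC (2.15, adjusted p = 7.3e-07), and 118.0 and 143.3 at day 1. Ccna2, the S-phase cyclin, read 1536 and 779.6 against 92.31 to 107.7 (2.68). The replication helicase genes Mcm3 and Mcm6 differed by -0.78 and -0.40, and Mcm3 was called without the day 7 array (-1.07). Immediate early genes gave 8 higher and none lower of 24, with Fosb at 3669 and 2544 against 268.7, 286.5 and 225.9 (3.20), while Jun differed by -0.99 and was called lower in 3 settings (-1.02 to -1.11). In the secretory pathway 3 of 22 were higher, led by the cargo receptor Kdelr3 (2.68), with 3 of 16 in glycolysis and 4 of 18 in cholesterol synthesis, beside 8.67% of all genes, and none was lower in these lists. Under 75th percentile scaling 6 secretory genes were higher. The cholesterol count was 2 without LSEC replicate 2, without the day 7 array and with the pooled median as the constant.

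Between the later times, each with 1 array, differences have no replicate check and are values alone. At day 14, 71 of the tested genes were at least 1 log2 unit higher than at day 7 (0.574%) and 122 at least 1 lower (0.986%), with a median of -0.05. Sparcl1, a relative of Sparc, read 1573 at day 14 and 207.0 at day 7, the matrix Gla protein Mgp 1753 and 291.8, and Angptl7, an angiopoietin-like protein, 1264 and 171.6. All 3 were called higher than LSEC, at 1.94, 2.13 and 1.74, but the differences without the day 14 array were 0.69, 0.98 and 0.54. Serpina3n, an acute phase serpin, read 1590 at day 14 and 273.1 at day 7, and was called higher than LSEC without the day 7 array (1.48). The day 14 array was lower than day 7 for Plvap, for Bmp10, an endothelial-acting BMP ligand (457.2 and 3713), for Hsd11b1, the glucocorticoid-activating enzyme (223.5 and 1976, with a call that ended without the day 7 array at 0.88), and for Cxcl14, a chemokine (387.1 and 2662). Bmp10 was nonetheless higher than the 71.78 to 78.07 of LSEC on both arrays (3.17).

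**Figure D5:**
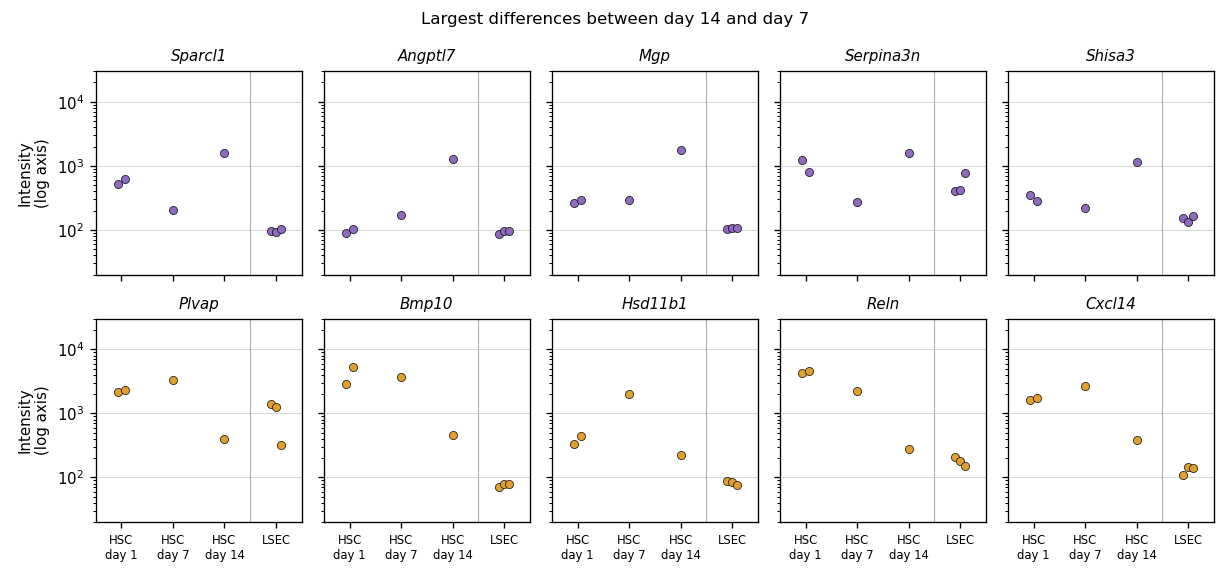
Intensity (log axis) of the 5 genes with the largest differences above (top) and below (bottom) day 7 at day 14, with 1 point per array for HSC at day 1 (2 arrays), day 7 (1) and day 14 (1) and for LSEC (3). Sparcl1, Angptl7, Mgp, Serpina3n and Shisa3 are high on the day 14 array, and Plvap, Bmp10, Hsd11b1, Reln and Cxcl14 on the day 7 array.

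Markers of other cells were checked in the same arrays. The 18 hepatocyte markers had none called, and their summed intensity was 2031 and 1946 in long-cultured HSC, against 2194, 2093 and 2356 in LSEC and 201500 to 218200 in hepatocytes. At day 1 it was 24340 and 13450. On all 5 arrays compared, 15 of the 18 were under the pooled median of 224.5, so most entered the test through other arrays. With the filter applied to those 5 arrays alone, 3 hepatocyte markers were tested and none was called. Of 17 Kupffer cell markers 4 were higher and 1 lower (median 0.12), beside 8.67% and 6.81% of all tested genes. Their sum was 5069 and 7656 against 5281 to 6547 in LSEC and 136500 to 137800 in Kupffer cells. With the filter over the 5 arrays, 8 Kupffer cell markers were tested, of which 4 were higher and 1 lower. Of all 10692 genes tested with that filter, 1053 were higher and 840 lower. The higher markers were Vsig4, C1qb, C1qc and Csf1r. Vsig4, a complement receptor of Kupffer cells, read 593.2 and 404.2 against 121.7, 124.8 and 52.63 (1.68), and the complement gene C1qb 825.1 and 1870 against 483.4, 387.0 and 192.8 (1.67). Adgre1, which encodes the macrophage antigen F4/80, differed by 0.98 and was called in 5 other settings. Clec4f read 183.6 and 194.7 against 168.6 to 188.9, and Timd4 113.7 and 114.9 against 105.2 to 117.5. Kupffer cell genes thus differed among themselves. With a constant of 20, 6 Kupffer cell markers were higher, and with the pooled median as the constant 3 were. Without the day 14 array C1qc differed by 1.00 (1.51 with it) and Csf1r by 0.87 (1.10). Without the day 7 array C1qa differed by 1.21 (0.87 with it) and Adgre1 by 1.30. Of 6 lymphocyte markers tested none was called, nor of the 2 tested with the filter over the 5 arrays. Their list summed to 1702 and 1756 against 1595 to 1728. Of 6 tested markers each, other myeloid cells and platelets had 1 lower and none higher, with sums of 1509 and 1715 against 1843 to 2475 and of 1435 and 1225 against 2184 to 3237. With the filter over the 5 arrays, 3 myeloid and 3 platelet markers were tested, again with 1 lower each. The lower platelet gene is Clec1b, which is also in the sinusoidal scavenger list and read 79.28 and 74.00 against 1689, 2037 and 977.6 (-3.31). Of 2 cholangiocyte markers tested Sox9, also a mesenchymal factor, was higher (1.13), a call that ended with the pooled median as the constant (0.87) and without the day 14 array (0.98), and that list summed to 1617 and 1348 against 878.4 to 947.9.

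Mesothelial genes were higher in 4 of 8 tested cases, Upk1b, Wt1, Lrrn4 and Upk3b, beside 8.67% of all tested genes. Upk1b, a uroplakin, read 306.0 at day 7 and 899.0 at day 14 against 107.4 to 122.6 in LSEC (1.66), and Lrrn4 247.6 and 642.8 against 128.4 to 139.8 (1.18). The sum of the 10 measured mesothelial markers was 3224 and 4459 against 2142 to 2451, with 4449 and 2879 in HSC at day 1. It was 33920 to 35330 on the hepatocyte arrays, so this sum is not particular to mesothelium. Msln, the defining mesothelin gene, read 139.2 and 184.1 against 134.6 to 138.7. Without the day 7 array, and likewise without the day 14 array, 5 mesothelial markers passed the filter and 1 was higher. Among 10 portal fibroblast markers tested 6 were higher, 3 of which also stand among the matrix genes. Thy1, a surface glycoprotein of fibroblasts, read 2026 and 2352 against 137.7 to 145.2 (3.34), at 243.6 and 202.2 on day 1, and the summed level of the 12 measured was 18470 and 23340 against 1666 to 1750. The keratin gene Krt19 read 559.5 at day 7 and 172.2 at day 14 against 111.8 to 123.5. The part of mesothelial, portal fibroblast or macrophage RNA in the differences above was not tested.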

How the data were processed

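Intensities for 25194 probe sets on 13 Affymetrix mouse gene arrays were used as deposited, on the linear scale, from 10.6 to 28854. Expression Console (Affymetrix) and MAS5 5.0 appear in the submitters' processing notes with no role. Normalization, background correction and build are not given in the sources used here, and the values came without detection calls. Of the probe sets, 21181 had 1 gene symbol, 1379 several and 2634 none. Symbols were updated by Entrez identifier (21097 matched the RefSeq GRCm38.p6 table, 84 did not), and for each of 19537 genes the probe set of highest mean over all arrays was kept. Genes above the pooled median of 224.5 on at least 2 arrays were tested on log2(intensity + 83), the constant being the 20th percentile of all values pooled.

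All 13 arrays entered 1 limma fit (R 4.3.3, limma 3.58.1) with 7-day and 14-day HSC as 1 group, 8 residual and 4.46 prior degrees of freedom, so that the spread came from all groups. Tests were two-sided. Of 72 called genes with a further tested probe set, none had it called the opposite way and 21 had it not called. The fit was run on simulated data: of 200 changed genes among 12368, 192 were called when shifted by 1.5 (log2), 199 when shifted by 2 and 200 when shifted by 3, and 0 of the other genes were called. The simulated noise was normal and independent, with equal shifts on both long-cultured arrays and no other group differences. These counts therefore check that the fit runs as intended and do not measure its error rate on the real arrays.

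The members and the 32 gene lists (703 genes, 655 measured) were chosen with earlier results of these data known, so lists are described by counts and medians. Named genes are the 12 largest differences each way with non-overlapping arrays, the anchor genes of each list, up to 6 called and 3 uncalled members per list in each direction, and the 5 largest differences each way between day 14 and day 7. A few further members are named for their place in a pathway and were chosen after their values were seen. Alternatives changed the constant, filter, scaling, probe set, arrays and variance prior, and left out each array in turn. The number of arrays limits the precision.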

Additional observations from a re-analysis of the deposited data

Results flagged for a closer look

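Probe sets with several gene symbols or none took no part in the gene comparison. Of 2181 such probe sets that passed the same filter, 99 were higher in long-cultured HSC than in LSEC and 79 were lower, together 8.16%, against 15.5% of the named genes. They are named here because they carry a signal outside the genes reported, and what they measure was not examined.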

How the results depend on the processing

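The main counts were 1072 genes higher and 842 lower. With adjusted p alone and no size limit they were 2720 and 4307, and with a log2 difference of at least 2 they were 413 and 197. Under the alternatives of constant, filter, scaling, probe set, arrays in the fit, variance prior and separate times, both counts stayed within 1.5 times of the main ones, and leaving out each array gave 893 to 1081 higher and 769 to 979 lower. No listed or named gene changed its direction past the threshold under these settings. The pooled median as a constant ended the calls of 34 of 610 genes that were listed or had the largest differences from LSEC. Leaving out the day 7 or day 14 array also ended calls. In those settings 588 and 589 of the 610 still passed the filter on low values. Genes named for day 14 against day 7 were affected too. Without the day 14 array Sparcl1 differed by 0.69, Mgp by 0.98, Angptl7 by 0.54 and Shisa3 by 0.35. Without the day 7 array Hsd11b1 differed by 0.88. Where an arm is left with 1 array, that array is assumed to vary like the other groups. With the 5 arrays alone (3 residual degrees of freedom) 1047 were higher and 836 lower. No paired analysis was possible because the 7-day and 14-day arrays carry no replicate number shared with LSEC. With 2 arrays at different times in 1 group, the number of arrays limits the precision, and low intensities are compressed by the constant of 83.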
